A study of Mus musculus with 32 samples.

Results

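Protocadherins are the largest family of cadherin-related adhesion proteins, and 67 protocadherin genes were followed here through the soma and neurites of cultured mouse hippocampal neurons. Members were all protein-coding genes among the 15805 protein-coding genes of the study's neurite-enrichment tables whose symbol begins with Pcdh. They comprised 55 clustered genes, of which 14 belonged to the alpha cluster, 21 to the beta cluster and 20 to the gamma cluster, and 12 single genes that lie outside the clusters. Of 70 annotated genes with such a symbol, 3 fell outside the rule. These were Pcdhb1 and Pcdhga10, with mean counts of 5 and 5.31 per library, and the polymorphic pseudogene Pcdhgb8.

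Clustered protocadherins give neurons a surface identity. In the alpha and gamma clusters each promoter drives its own variable first exon, which encodes the whole extracellular and membrane-spanning part, and this exon is spliced to constant exons shared by the entire cluster, whereas beta genes have no constant exons. Neurons choose a few of these promoters stochastically, the C-type isoforms are expressed more uniformly, and binding between matching isoforms serves the self-avoidance and tiling of dendrites and axons. Single protocadherins of the delta type act in cell sorting, axon growth and synapse turnover, and Pcdh8, also called arcadlin, is known as an activity-regulated member that brings about the endocytosis of N-cadherin at synapses.

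Primary hippocampal neurons of neonatal C57BL/6 mice (WT) or of Mettl3Flox/Flox mice (Mettl3 KO) were grown on porous membranes until day 15 in vitro (DIV15), so that cell bodies stayed on top and neurites could be scraped from below. Both genotypes received AAV with Cre under the neuronal hSyn promoter at DIV7 (50000 vg per cell). Activity was then blocked in both from DIV14 over 16 h, by tetrodotoxin at 1 µM together with D-AP5 at 50 µM. Cultures were then left as they were (Ctrl) or depolarised with 55 mM KCl for 2 h. Each of the 8 groups of genotype, compartment and treatment held 2 RNA-seq libraries, and 16 further libraries were made for DART-seq, in which a fusion of APOBEC1 to a YTH domain turns cytidines next to m6A into uridines. Each duplicate came from another litter, whose pups were pooled, and soma fractions can hold neurites that grew on top of the membrane. Genotype cannot be told apart from strain, and in bulk RNA fewer cells of a type cannot be told apart from less RNA per cell.

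RNA-seq libraries held 33789183 to 71394235 counts. Mettl3 stood at 6.18 to 11 CPM (a gene's count relative to its library's total, scaled here by the trimmed mean of M-values, TMM) in the 4 KO soma libraries and at 13.5 to 16.7 CPM in the 4 WT soma libraries, and at 3.91 to 8.23 against 9.04 to 12.4 CPM in neurites, without overlap. Neuronal markers summed to 4082 to 5898 CPM in the WT libraries. Astrocyte markers were present throughout, with summed levels of 1271 to 1805 CPM in WT soma and 2298 to 3458 CPM in WT neurites. Replicate 1 of the KCl-treated KO group stood apart in both compartments: its summed oligodendrocyte-lineage markers reached 3626 CPM in soma and 7253 CPM in neurites, against 58.6 to 191 CPM in the other 14 libraries. Many counts, medians and ranges that use this pair of libraries are also given without it.

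The sequences around 2 DART-seq sites are shown to place the edited cytidine within single protocadherin RNAs: the 1 site of Pcdh8, the member with the largest KCl change in WT cells, and the most edited site of Pcdh10. Capitals mark the edited C and the 3 bases before it, and the sequence runs 5′ to 3′ on the RNA's strand as read from the GRCm38 genome.
Pcdh8: agcgccaGGACacctacgagc
Pcdh10: gcaaaggAAACagcagaaaag
The Pcdh8 window covers chr14:79770158-79770178 on the minus strand, in the coding part of the first exon, where an antisense gene, Gm9748, overlaps it. The Pcdh10 window covers chr3:45378499-45378519 on the plus strand, in the 5′ UTR of the first exon.

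What a count means differs between the clusters, which lie side by side on the plus strand of chromosome 18 (GRCm38), alpha from 36930184 to 37187661, beta from 37294812 to 37524479 and gamma from 37661793 to 37841873. Fragments were counted only where they fell on 1 gene, so fragments from constant exons of the alpha and gamma clusters were assigned to no gene, and alpha and gamma counts come from variable exons. Between 7.0% and 51.4% of the exon length of an alpha gene was free of other genes, and 26.4% to 68.5% of that of a gamma gene, whereas 18 of 21 beta genes and 8 of 12 single genes shared no base. Pcdha4 kept only 404 such bases. The 3 read-through genes that span the clusters, Gm37013, Gm37388 and Gm42416, had a count of 0 in every library. Levels were therefore compared between genes as CPM per kilobase of unshared exon. Fragments that map to several places were counted at each, so values of near-identical paralogs remain uncertain.

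In untreated WT soma, 4 of the 5 C-type isoforms led the clusters. Per kilobase of unshared exon, Pcdhac2 reached 19.1 ± 1.83 CPM (SD, n = 2), Pcdhgc4 16.6 ± 1.48, Pcdhgc3 8.58 ± 0.752, Pcdhgc5 8.49 ± 1.5, whereas Pcdhac1 stood at 2.07 ± 0.238. The neighbours Pcdhac2 and Pcdhgc4 were close and Pcdhgc3 and Pcdhgc5 did not differ beyond their spread: replicate values of 20.3 and 17.8 stood beside 15.5 and 17.6 in the first pair, which just missed overlapping, and values of 8.05 and 9.11 beside 7.43 and 9.54 in the second, which overlapped. The other 50 clustered genes had a median of 1.44 and ranged from 0.460 for Pcdhb8 to 6.46 for Pcdhb9. By cluster, medians were 2.55 for alpha, 1.10 for beta and 2.41 for gamma genes. C-type isoforms made up 36.7% and 38.8% of the summed CPM of clustered genes in the 2 untreated WT soma libraries. No test was made of this order.

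**Figure D1:**
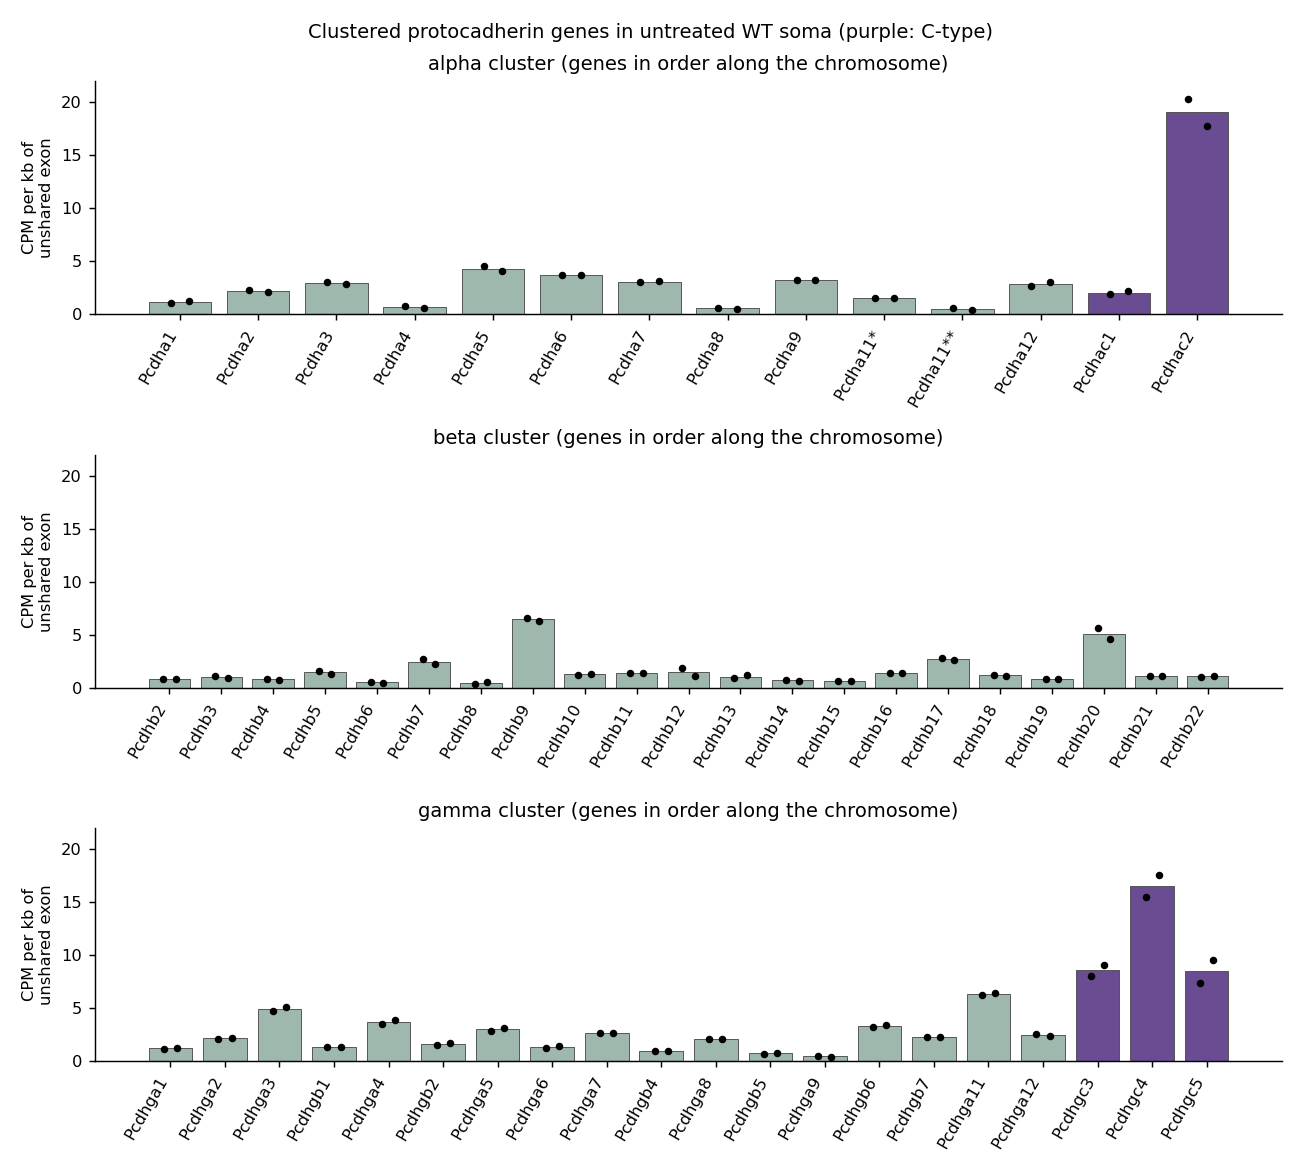
Level of each clustered gene in untreated WT soma, as TMM-scaled CPM per kilobase of exon shared with no other gene (bars: mean of 2 libraries, points: each library, genes in chromosomal order). Pcdhac2 and Pcdhgc4, both C-type (purple), are the highest at 19.1 and 16.6. Pcdha11* is ENSMUSG00000007440 and Pcdha11** is ENSMUSG00000102206, which the tables both name Pcdha11.

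Among single genes, Pcdh8 had the highest level at 23.4 ± 0.152 CPM per kilobase, followed by Pcdh9, a delta-1 protocadherin, at 20.8 ± 0.904. Pcdh20 at 5.88 ± 0.0761, Pcdh19 at 5.41 ± 0.531 and Pcdh1 at 4.77 ± 0.519 came next, then Pcdh17 at 4.14 ± 0.0585. Of these neighbours only Pcdh19 and Pcdh1 had overlapping replicates, at 5.79 and 5.04 against 5.14 and 4.4. Pcdh18, Pcdh7, Pcdh10 and Pcdh11x lay between 1.57 and 0.691. Pcdh15, best known from the tip links of hair cells, and Pcdh12, known from the endothelium, were lowest at 0.0799 and 0.0476, the latter from 4 to 27 reads per library.

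In WT cells, depolarisation moved Pcdh8 (ENSMUSG00000036422, chromosome 14, 79766775 to 79771312, minus strand) more than any other protocadherin. In WT soma Pcdh8 stood at 96.4 and 95.5 CPM without KCl and at 338 and 778 CPM with it. In WT neurites it went from 90.1 and 78.6 CPM to 377 and 414 CPM. All 4 KCl-treated WT libraries lay above all 4 untreated ones. The rise was 5.54-fold in soma (log2 change 2.47, SE 0.30, adjusted p = 0.000411) and 4.81-fold in neurites (log2 change 2.27, SE 0.307, adjusted p = 0.00122), by edgeR's quasi-likelihood test with Benjamini-Hochberg adjustment. Pcdh8 was the 1 member called at 2-fold and an adjusted p of 0.05 in each compartment, where 3.74% of all genes in soma and 3.33% in neurites were called higher, and 2.96% and 1.7% lower. The soma value depended on the library: the log2 change was 2.97 without WT soma KCl replicate 1 and 1.73 without replicate 2. With the spread of all 16 libraries, KO included, the adjusted p was 0.0540 in soma and 0.109 in neurites.

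Pcdh8 took up 20.3% and 21.1% of the summed CPM of the 12 single genes in untreated WT soma, and 43.1% and 60.5% after KCl. Neurite shares were 19.9% and 17.3% before and 48.7% and 50.2% after KCl. The difference between the neurite and the soma response was small beside its error, with a log2 change of -0.08 (SE 0.32, unadjusted p = 0.818) in the neurite-to-soma ratio, but without the insert labelled WT KCl replicate 1 it was -0.63 (unadjusted p = 0.00699).

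In KO cultures Pcdh8 stood at 113 and 218 CPM in untreated soma and at 522 and 988 CPM in KCl-treated soma. KO neurites held 204 and 103 CPM without and 317 and 882 CPM with KCl. In both compartments the KCl-treated libraries lay above the untreated ones, and the neurite difference was not tested. The soma difference, a log2 change of 2.19 (SE 0.58), had an adjusted p of 0.109 in edgeR's quasi-likelihood test, where 0.976% of all genes were called higher and no protocadherin was. DESeq2 on the same libraries gave Pcdh8 an adjusted p of 0.0100, and edgeR gave 0.0439 without both libraries of KO KCl replicate 1. Without KO soma Ctrl replicate 1, Pcdhga1 and Pcdh17 were called higher instead, with log2 changes of 2.36 and 1.37. At an unadjusted p of 0.05 and 2-fold, 3 members, Pcdh8, Pcdh11x and Pcdh15, were higher and 1, Pcdha8, was lower, beside 7.8% of all genes higher and 4.84% lower.

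**Figure D2:**
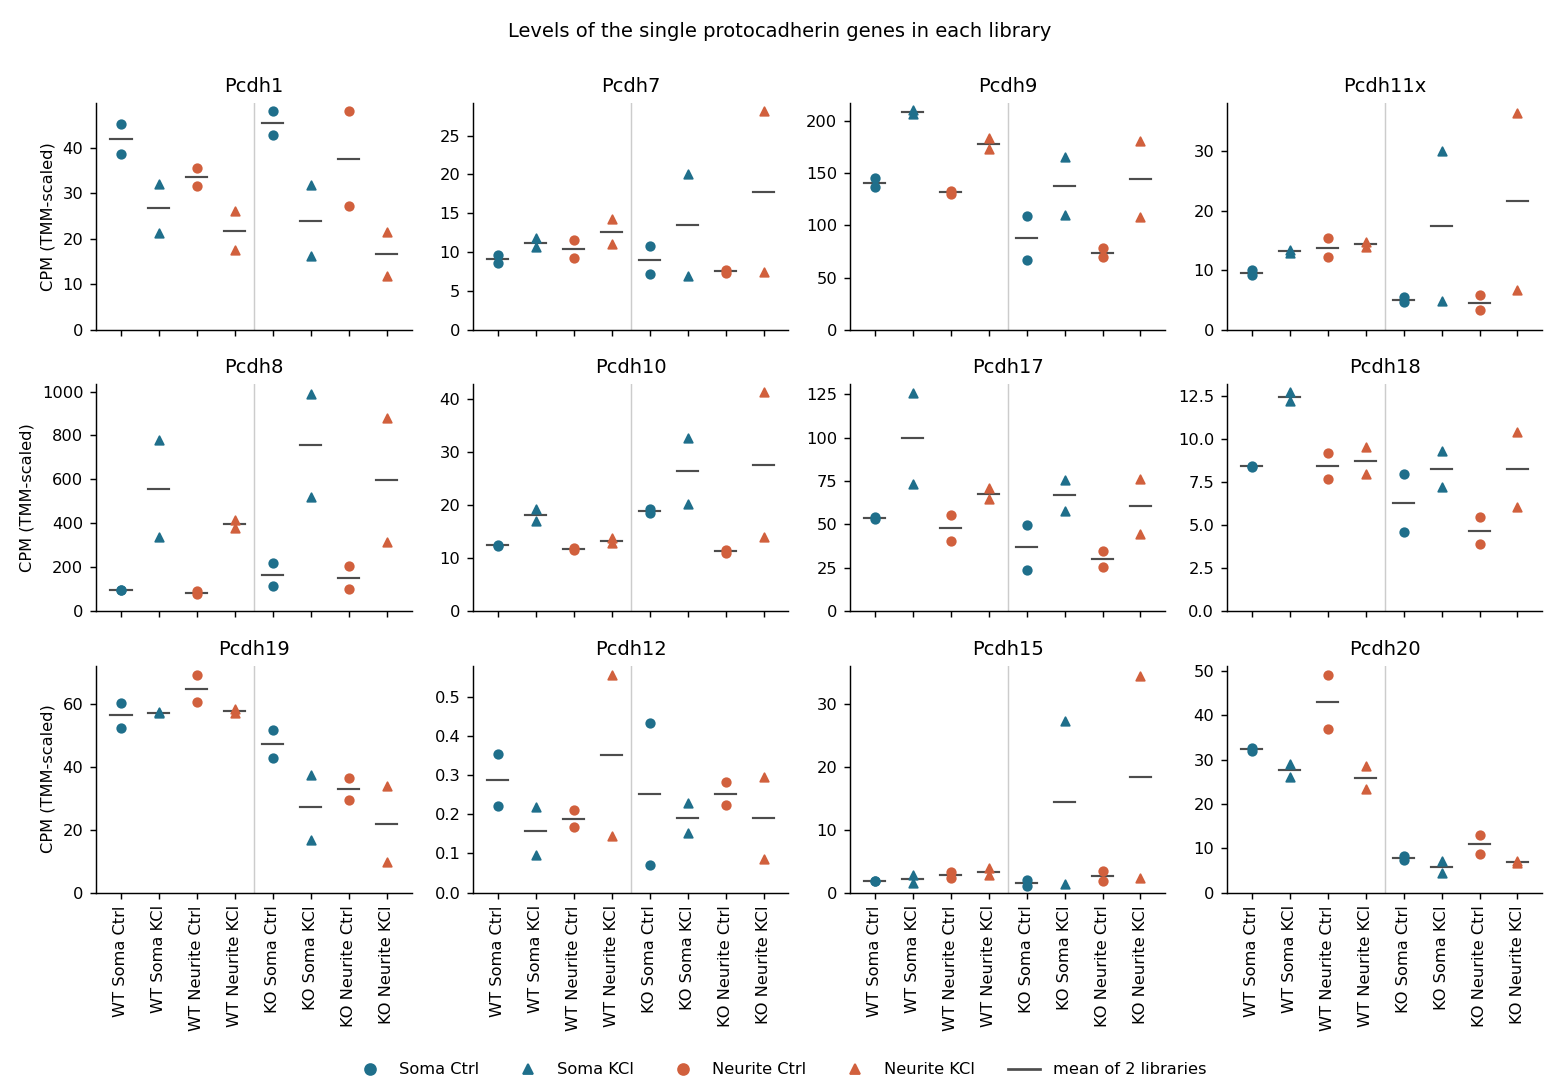
TMM-scaled CPM of the 12 single protocadherin genes in each of the 16 libraries (circles: Ctrl, triangles: KCl, blue: soma, orange: neurites, lines: mean of 2 libraries; each panel has its own linear axis from 0). Pcdh8 rises from 78.6 to 96.4 CPM in untreated WT libraries to 338 to 778 CPM after KCl, and Pcdh20 lies at 4.41 to 13.1 CPM in all 8 KO libraries against 23.4 to 49.0 CPM in WT.

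Pcdh9 rose by less than 2-fold in both WT compartments. Its levels were 145 and 136 CPM in untreated and 210 and 207 CPM in KCl-treated soma, a log2 change of 0.49 (SE 0.10, adjusted p = 0.00889). In neurites they went from 130 and 133 CPM to 173 and 184 CPM, a log2 change of 0.47 (SE 0.10, adjusted p = 0.0149). Groups did not overlap in either compartment. In soma the adjusted p was 0.0511 with WT soma Ctrl replicate 1 left out and 0.0872 with the other untreated library left out, and in neurites it was 0.055 to 0.141 without any 1 of the 4 libraries.

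Pcdh17, a delta-2 protocadherin of axon extension and presynaptic assembly, rose in soma. It stood at 53.3 and 54.4 CPM without and at 73.4 and 126 CPM with KCl, a log2 change of 0.82 (SE 0.22, adjusted p = 0.0361). The treated libraries differed widely: without WT soma KCl replicate 2 the log2 change was 0.36 (adjusted p = 0.159), and without either untreated soma library the adjusted p was 0.163 or 0.139. With the replicate number as a block it was 0.0543. In neurites Pcdh17 measured 55.3 and 40.6 CPM without and 64.6 and 70.9 CPM with KCl (log2 change 0.53, SE 0.23, adjusted p = 0.201).

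Pcdh20 fell in neurites, from 36.8 and 49.0 CPM to 28.5 and 23.4 CPM (log2 change -0.69, SE 0.16, adjusted p = 0.0238), again by less than 2-fold. Without WT neurite KCl replicate 2 the adjusted p was 0.226 and without WT neurite Ctrl replicate 2 it was 0.149. In soma its levels were 32.0 and 32.6 CPM without and 29.1 and 26 CPM with KCl (adjusted p = 0.260). Pcdh1, a delta-1 protocadherin, also had lower values after KCl in both compartments, at 45.2 and 38.7 against 21.3 and 32.0 CPM in soma (log2 change -0.72, SE 0.22, adjusted p = 0.0577) and 35.5 and 31.6 against 26 and 17.5 CPM in neurites (adjusted p = 0.156). Without WT soma KCl replicate 2, Pcdh1 was called lower in soma with a log2 change of -1.06. Pcdh10, a delta-2 protocadherin, at 12.5 and 12.3 against 16.9 and 19.3 CPM in soma had an adjusted p of 0.0503, above the threshold.

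Log2 changes of clustered genes with KCl lay above 0 almost throughout, but few passed the test. In WT soma 51 of 55 clustered genes had a log2 change above 0, against 50.9% of all 24060 genes tested, and 3 passed an adjusted p of 0.05, all of the beta cluster. That is 3 of 55 beside 6.13% of all genes higher and 7.07% lower at this threshold. Median log2 changes were 0.44 for alpha, 0.45 for beta and 0.34 for gamma genes, against 0.01 for all genes. For gamma genes the treated libraries differed. Their sum was 175 CPM in WT soma KCl replicate 1, below the untreated 199 and 222 CPM, and 338 CPM in replicate 2. All 21 beta genes were above 0, with log2 changes of 0.16 to 0.70. Both treated libraries lay above both untreated ones for 42 of the 67 protocadherin genes, single genes included, against 33.8% of all genes tested.

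The 3 beta genes that rose in soma were Pcdhb9, Pcdhb7 and Pcdhb5. Pcdhb9, the most abundant beta gene per kilobase, went from 20.2 and 19.3 CPM to 33.5 and 31.6 CPM (log2 change 0.65, SE 0.13, adjusted p = 0.00789). Pcdhb7 went from 9.56 and 7.73 CPM to 13.1 and 13.5 CPM (log2 change 0.55, SE 0.16, adjusted p = 0.0435). Pcdhb5 went from 5.64 and 4.71 CPM to 7.70 and 9.99 CPM (log2 change 0.70, SE 0.20, adjusted p = 0.0453). In each of them the treated and untreated libraries did not overlap. With any 1 of the 4 soma libraries left out, the adjusted p of Pcdhb7 was between 0.0586 and 0.272, that of Pcdhb9 was 0.0568 or 0.0734 without an untreated library, and that of Pcdhb5 was 0.111 to 0.249 with either untreated library or WT soma KCl replicate 2 left out. With the replicate number as a block the adjusted p was 0.067 for Pcdhb7 and 0.0625 for Pcdhb5.

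In WT neurites 51 of 55 clustered genes again had a log2 change above 0, against 51.4% of all genes, with medians of 0.26 for alpha, 0.39 for beta and 0.40 for gamma genes and 0.01 for all genes. All 20 gamma genes were above 0. One clustered gene passed the test, Pcdha11 (ENSMUSG00000007440), at 3.11 and 2.19 CPM without and 4.58 and 5.07 CPM with KCl (log2 change 0.89, SE 0.23, adjusted p = 0.0426), beside 5.59% of all genes higher and 3.24% lower at this threshold. Its adjusted p was 0.0978 or 0.222 with 1 treated library left out and 0.175 without WT neurite Ctrl replicate 2, and 0.0695 with the replicate number as a block. Calls at 2-fold turned on WT neurite Ctrl replicate 1: without it Pcdha12, Pcdha11 (ENSMUSG00000007440) and Pcdhb15 were called higher beside Pcdh8. The share of all genes called in that fit is not given. Soma and neurite comparisons used different libraries, but soma and neurites came from the same cultures.

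**Figure D3:**
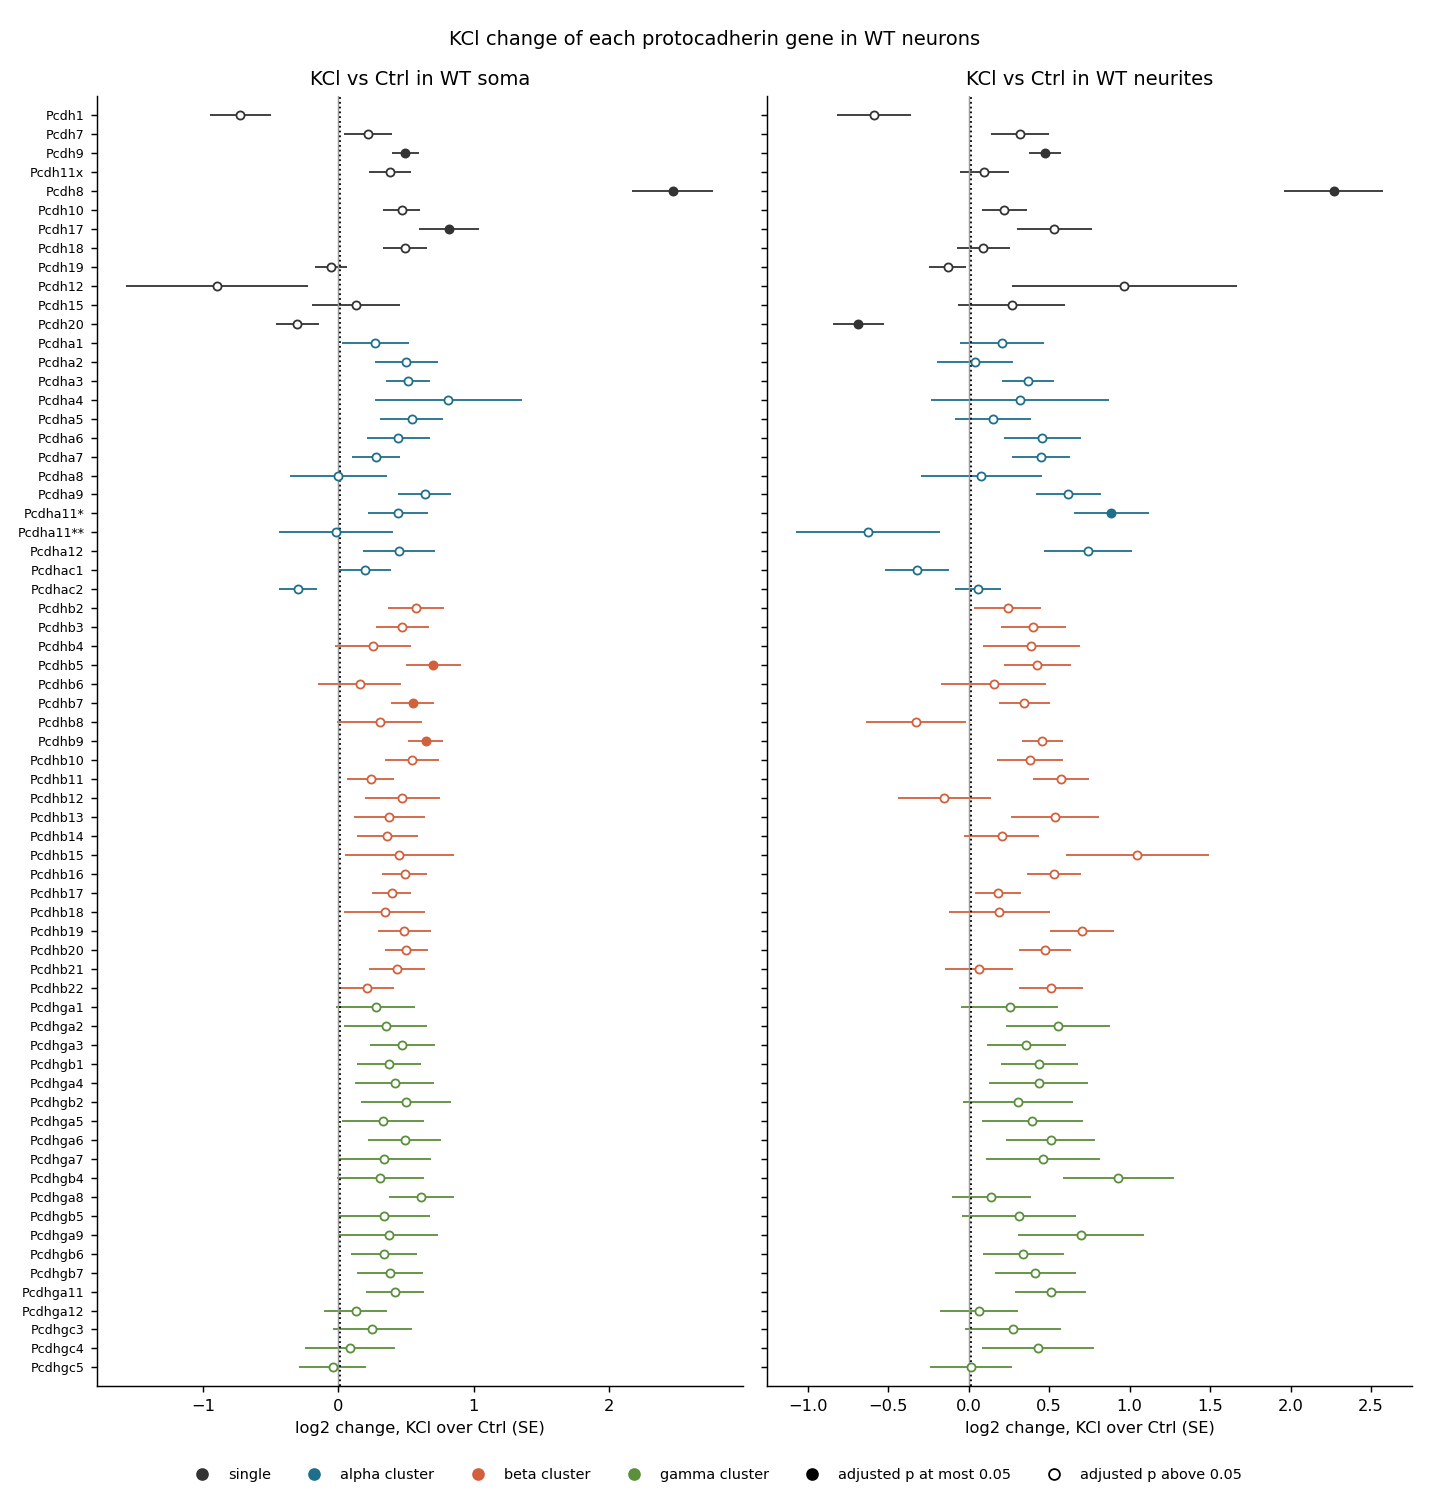
Log2 change with KCl (points, with SE as bars) of each protocadherin gene in WT soma (left) and WT neurites (right), filled where the adjusted p is at most 0.05 and open otherwise; the dotted line is the median of all genes tested, 0.01 in both. In each compartment 51 of the 55 clustered genes lie above 0, and Pcdh8 lies at 2.47 and 2.27. Pcdha11* is ENSMUSG00000007440 and Pcdha11** is ENSMUSG00000102206.

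C-type isoforms had lower median changes than the other clustered genes, with ranges that overlapped. In WT soma 3 of 5 were above 0, and their log2 changes ran from -0.30 for Pcdhac2 to 0.25 for Pcdhgc3 with a median of 0.09, whereas the other 50 clustered genes ran from -0.02 to 0.81 with a median of 0.42. In neurites 4 of 5 were above 0, with a range of -0.32 to 0.43 and a median of 0.06, against -0.63 to 1.05 and 0.39 for the others. Pcdhac2 measured 61.6 and 53.8 CPM in untreated and 44.2 and 54.3 CPM in KCl-treated soma (adjusted p = 0.205). The C-type share of clustered CPM was 36.7% and 38.8% before and 26.2% and 33.3% after KCl in soma, and 33.6% and 32.5% before and 31.1% and 28.5% after KCl in neurites. The difference between the 2 kinds of isoform was not tested, because they were singled out with these values in view.

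Summed over each cluster, alpha genes went from 127 and 119 CPM to 135 and 150 CPM in WT soma and beta genes from 136 and 127 CPM to 189 and 194 CPM, without overlap. Gamma genes overlapped, at 199 and 222 CPM before and 175 and 338 CPM after KCl. The spread between the 2 treated soma libraries was thus widest in the gamma cluster. Astrocyte markers summed to 1271 and 1301 CPM in untreated and 1798 and 1805 CPM in KCl-treated WT soma, and interneuron markers to 656 to 694 and 1052 to 1146 CPM. The part of these markers in the protocadherin values was not tested.

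In KO soma, 37 of 55 clustered genes had a log2 change with KCl above 0, against 55.3% of all genes, and none was called. Medians were -0.28 for alpha, 0.21 for beta and 0.43 for gamma genes and 0.10 for all genes. Without both libraries of KO KCl replicate 1, 39 of 55 were above 0, against 49.9% of all genes, with medians of -0.07 for alpha, 0.15 for beta and 0.38 for gamma genes. Alpha genes summed to 151 and 133 CPM in untreated and 57.0 and 124 CPM in KCl-treated KO soma, where the low value belonged to replicate 1, the library with the raised oligodendrocyte-lineage markers. Neuronal markers summed to 1507 CPM in that library and to 4139 CPM in replicate 2, and astrocyte markers to 10327 and 2727 CPM, and the replicate 1 neurite library held 916 and 20194 CPM of the neuronal and the astrocyte markers. The same replicate held Pcdh15 at 27.4 CPM in soma and 34.5 CPM in neurites, against 0.984 to 3.85 CPM in the other 14 libraries. Its Pcdh11x value in neurites was 36.5 CPM, against 3.31 to 15.4 CPM in those 14. Pcdh7 was likewise highest there, at 20.0 and 28.2 CPM. The part of neuronal, astrocyte and oligodendrocyte-lineage RNA in these values was not tested. DESeq2 called Pcdh15 higher after KCl in KO soma with an adjusted p of 0.0456, a call that rests on this library, since replicate 2 measured 1.38 CPM beside 2.04 and 0.984 CPM in the untreated libraries.

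Few protocadherin RNAs were called between compartments. In untreated WT neurons, 30 of 67 members had a higher value in neurites than in soma, against 42.9% of all 23200 genes tested, and the members' median log2 ratio was -0.10, the same as that of all genes, with a range of -0.89 to 1.08. Both neurite libraries lay above both soma libraries for 16 members and below them for 11, beside 32.9% and 32% of all genes. Pcdhb8 was the 1 member called at 1.5-fold and an adjusted p of 0.05, beside 9.01% of all genes called higher and 4.54% called lower. It measured 4.6 and 2.55 CPM in neurites and 1.42 and 1.79 CPM in soma (log2 ratio 1.08, SE 0.32, adjusted p = 0.0374), and the groups did not overlap.

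That call was fragile. With soma and neurites of the same replicate number as a block, the adjusted p of Pcdhb8 was 0.0589, and it was 0.220 without WT neurite Ctrl replicate 1, 0.207 without WT soma Ctrl replicate 1 and 0.119 without WT soma Ctrl replicate 2. Without WT neurite Ctrl replicate 1, other members were called, Pcdha2 higher and Pcdha6, Pcdha12, Pcdha11 (ENSMUSG00000007440) and Pcdhb15 lower. The share of all genes called in that fit is not given. Pcdhb7 also passed the adjusted p alone (log2 ratio 0.53, SE 0.16, adjusted p = 0.0417), at 13.6 and 13.0 CPM in neurites and 9.56 and 7.73 CPM in soma, beside 10.9% of all genes higher and 8.59% lower. With 1 soma or neurite library left out its adjusted p was 0.0616 to 0.249, and with the block it was 0.0634.

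Of the abundant members, Pcdhac2 gave 53.4 and 48.3 CPM in neurites and 61.6 and 53.8 CPM in soma (log2 ratio -0.28, SE 0.14, adjusted p = 0.194). Pcdhgc4 gave 45.7 and 26.6 CPM in neurites and 54.0 and 61.2 CPM in soma (log2 ratio -0.76, SE 0.34, adjusted p = 0.146). Groups did not overlap in either gene. Pcdh8 had a log2 ratio of -0.28 (SE 0.29, adjusted p = 0.527), Pcdh9 of -0.19 (SE 0.10, adjusted p = 0.205) and Pcdh19 of 0.11 (SE 0.12, adjusted p = 0.548). A p above the threshold does not show that the compartments are alike.

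After KCl, 26 of 67 members had a higher value in WT neurites than in soma, against 47.2% of all genes, and none was called in either direction at 1.5-fold, where 6.87% of all genes were called higher and 2.73% lower. By the adjusted p alone none passed either, beside 8.59% of all genes higher and 4.8% lower. At an unadjusted p of 0.05 and 1.5-fold edgeR gave 0 members, beside 9.89% of all genes higher and 5.92% lower, and DESeq2 gave 0 at its adjusted threshold. The largest shortfall in neurites was that of Pcdh17, at 64.6 and 70.9 against 73.4 and 126 CPM (log2 ratio -0.55, SE 0.23, adjusted p = 0.141). The lack of calls turned on the 2 treated soma libraries: Pcdhgc4, Pcdh8 and Pcdh17 were called lower in neurites without WT soma KCl replicate 1, and Pcdhgc3, Pcdhga12 and Pcdh15 higher without replicate 2. The shares of all genes called in those fits are not given.

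The change of neurite enrichment with KCl in WT cells passed the study's looser rule, an unadjusted p of 0.05 and 1.5-fold, for 0 of 67 members, beside 2% of all genes higher and 1.35% lower. DESeq2 gave 0 members as well, and no gene passed an adjusted p of 0.05. With any 1 insert left out, some members passed this rule, in fits that held a lone soma and a lone neurite library in a condition. The share of all genes in those fits is not given, so these passes are not read as a result about protocadherins. With all inserts, 34 of 67 members lay above 0, against 56.5% of all genes. Log2 changes of the 55 clustered genes ran from -0.66 to 0.73 with a median of 0.03, against 0.05 for all genes, and Pcdh12, with few reads, had the largest value of any member at 1.75.

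In KO neurons no member was called between neurites and soma, nor was any gene of 22557 tested without KCl or of 23152 tested with it. At an unadjusted p of 0.05 and 1.5-fold, 1 member, Pcdhb9, was higher in untreated KO neurites (log2 ratio 0.68), beside 2100 genes higher and 1054 lower in all (9.31% and 4.67%), and DESeq2 called 961 genes, none of them a protocadherin. With KCl Pcdhb9 was again the 1 member at that rule (log2 ratio 0.60), beside 202 genes higher and 254 lower (0.872% and 1.1%), and DESeq2 called 1 gene, no protocadherin. Of the 66 members tested there, 36 were above 0, against 56.2% of all genes. Without both libraries of KO KCl replicate 1 the count above 0 was 23 of 66, against 46.9% of all genes, and no member passed either rule with KCl, while without KCl 151 genes were called higher and 45 lower, none of them a protocadherin. Without KO soma Ctrl replicate 1, edgeR called Pcdhb9 and Pcdhga1 higher, with log2 ratios of 1.01 and 2.42. Astrocyte markers summed to 2140 to 2713 CPM in untreated KO soma and to 3205 to 7344 CPM in untreated KO neurites, and their part in these ratios was not tested.

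Comparison of the genotypes turned on Pcdh20 (ENSMUSG00000050505, chromosome 14, 88464743 to 88471396, minus strand), a single protocadherin outside the delta groups. In untreated soma it stood at 7.23 and 8.26 CPM in KO and at 32.0 and 32.6 CPM in WT. In untreated neurites it stood at 13.1 and 8.79 CPM in KO and at 36.8 and 49.0 CPM in WT. After KCl, KO soma held 7.18 and 4.41 CPM and KO neurites 7.06 and 6.67 CPM, against 23.4 to 29.1 CPM in the 4 KCl-treated WT libraries. All 8 KO libraries thus lay below all 8 WT libraries. The untreated difference was 4.17-fold in soma (log2 change -2.06, SE 0.31, adjusted p = 0.0194) and 3.92-fold in neurites (log2 change -1.97, SE 0.30, adjusted p = 0.0289). Pcdh20 was the 1 protocadherin called in each compartment, beside 0.122% of all genes called lower and 0.0632% called higher in soma, and 0.124% and 0.0642% in neurites.

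The adjusted p of Pcdh20 depended on the libraries. Without KO soma Ctrl replicate 2 it was 0.119, 0.184 with WT soma Ctrl replicate 1 left out and 0.227 with the other WT library left out. In neurites it was 0.157 and 0.223 without 1 of the KO libraries and 0.117 and 0.298 without 1 of the WT libraries. With the replicate number as a block it was 0.0676 in soma and 0.0647 in neurites, and with the 4 soma libraries alone it was 0.346. Log2 changes stayed between -2.19 and -1.89 in soma and between -2.27 and -1.68 in neurites under every alternative tried. Without both libraries of KO KCl replicate 1, which enter only through the spread, the adjusted p was 0.00540 in soma and 0.00780 in neurites. Neuronal markers summed to 3630 to 4225 CPM in untreated KO soma and 4082 to 4255 CPM in untreated WT soma, which overlapped, and to 3571 to 4058 CPM in untreated KO neurites and 5260 to 5866 CPM in untreated WT neurites, which did not. Their part in the Pcdh20 difference was not tested.

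Over all 8 libraries of each genotype, 4 of 67 protocadherin genes had every KO library below every WT library, where 2.22% of all genes did so, and none had every KO library above, where 1.26% did. Beside Pcdh20 these were Pcdh19, Pcdhgc5 and Pcdhac1. Pcdh19, the X-linked gene of an epilepsy with a female-limited pattern in people, ranged from 9.81 to 51.6 CPM in KO and from 52.4 to 69.2 CPM in WT, with medians of 35.2 and 57.8 CPM. Pcdhgc5 ranged from 9.23 to 26.7 CPM in KO and from 27.6 to 52.1 CPM in WT. Pcdhac1 ranged from 0.571 to 3.95 CPM in KO and from 4.85 to 7.54 CPM in WT. In the 6 KO libraries left without KO KCl replicate 1, Pcdh19 ranged from 29.5 to 51.6 CPM and Pcdhac1 from 2.5 to 3.95 CPM, and the ranges of Pcdh20 and Pcdhgc5 were the same as in all 8. None of these 3 genes was called in untreated soma or neurites (Pcdhgc5 in soma: log2 change -1.55, SE 0.47, adjusted p = 0.311).

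Without both libraries of KO KCl replicate 1, more genes were called in untreated neurites, over all genes as well as among members. That fit held a lone library in each KCl-treated KO group. Pcdhac1 (log2 change -1.25), Pcdh19 (-0.94) and Pcdh11x (-1.55) were then called lower beside Pcdh20. In soma, leaving out KO soma Ctrl replicate 1 added Pcdha2, Pcdhb9 and Pcdhga1 as lower. Among all members tested, 48 of 67 were below 0 in KO soma with a median log2 change of -0.30 against 0.02 for all genes, and 46 of 66 in KO neurites with a median of -0.21 against 0.01. The KO replicates differed. Beta genes summed to 144 CPM in untreated KO soma replicate 1 and 80.5 CPM in replicate 2, against 136 and 127 CPM in WT. Gamma genes summed to 222 and 88.9 CPM there, against 199 and 222 CPM in WT. In neurites KO sums were 139 and 99.3 CPM (beta) and 256 and 114 CPM (gamma). WT neurites held 147 and 129 CPM (beta) and 228 and 177 CPM (gamma). Alpha sums of KO soma, 151 and 133 CPM, lay above the WT sums of 127 and 119 CPM. Astrocyte markers stood at 2713 and 2140 CPM in untreated KO soma and 1271 to 1301 CPM in untreated WT soma, and their part in the members' shift was not tested.

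The difference in neurite enrichment between the genotypes passed the looser rule for 1 of 67 members. Pcdh19 had a lower neurite-to-soma ratio in untreated KO than in WT cells at the looser rule (log2 change -0.72, SE 0.30, unadjusted p = 0.0400, adjusted p = 0.934), beside 1.28% of all genes lower and 2.91% higher. It measured 29.5 and 36.4 CPM in KO neurites and 42.9 and 51.6 CPM in KO soma, against 60.4 and 69.2 CPM in WT neurites and 60.2 and 52.4 CPM in WT soma. DESeq2 called no member, and the call was lost without any 1 of the 4 inserts. Without KO Ctrl replicate 1 the members called were instead Pcdha9 and Pcdhga1 higher and Pcdh11x lower, without KO Ctrl replicate 2 Pcdh8 higher, and without WT Ctrl replicate 1 Pcdhb15 higher.

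DART-seq sites were listed for 8 of 67 protocadherin RNAs (11.9%), where 34.8% of the 15800 protein-coding gene names of the enrichment tables were listed. They were Pcdh1, Pcdh8 and Pcdh10 of the single genes, Pcdhac2 and Pcdha1 of the alpha cluster and Pcdhgc3, Pcdhgc4 and Pcdhga1 of the gamma cluster, and 0 of 21 beta genes was among them. The listed members had a median of 29.9 CPM over the 16 RNA-seq libraries against 6.18 CPM for the 59 others. Pcdha1 and Pcdhga1, listed through sites in exons shared by their clusters, had 2.50 and 3.52 CPM. Site calls need reads, and m6A in a weakly expressed RNA may not be detectable at this depth. The part of the level in the share listed was not tested. The most abundant RNA without a site was Pcdh9, at 138 CPM. Values in this table are the authors' averages over libraries, without replicate error, and no test was made. By the paper's description, the soma and the neurite averages each pool untreated with KCl-treated samples.

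The 8 RNAs held 25 of the 18231 sites. By the place of the site in GENCODE transcripts, 21 lay in coding sequence (84.0%, against 59.9% of all sites), 3 in a 3′ UTR (12% against 32%) and 1 in a 5′ UTR. First exons of transcripts with several exons held 17 of the 25 (68.0%), against 6.16% of all sites. Among the clustered RNAs, 13 of 16 sites lay in the variable first exon of Pcdhac2, Pcdhgc3 or Pcdhgc4, exons of 2568 to 3028 bases. The site listed under Pcdha1 and both sites listed under Pcdhga1 lay in the last exon. Genes of 13 alpha symbols have an exon over the Pcdha1 site, where the symbol Pcdha11 stands for 2 genes. Genes of 22 or 23 symbols have an exon over the Pcdhga1 sites, and the 23 include Gm38182, which has no protocadherin symbol. The RNA of origin of these sites may thus be any member of the cluster. The 4 letters ending in the edited C, GGAC in Pcdh8 and AAAC in Pcdh10 (printed above), fell under the same rule for all sites, since only sites with an A before the C and A or G before that were kept. GGAC stood at 5 of 25 protocadherin sites (20.0%) and 16.2% of all sites, on the strand of the RNA and with no overlap between matches.

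Editing at single sites was modest. The median was 3.30% over the 25 sites and 3.54% over all sites, and it ranged from 0.829% in the shared last exon of the gamma cluster to 13.9% in the variable exon of Pcdhac2. A coding site of Pcdh1 followed with 13.4%. The 8 sites of Pcdhgc3 lay between 1.97% and 5.79%, of which 4 overlap an antisense gene, BC037039. The Pcdh8 site shown above was edited at 1.84% and the Pcdh10 site at 5.51%.

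Summed over sites, the scores of Pcdhac2 (0.318), Pcdh1 (0.314) and Pcdhgc3 (0.299) in WT lay at the 90.7, 90.3 and 89.1 percentile of all 5643 RNAs, Pcdh10 (0.131) at the 59.8 percentile, and the other 4 RNAs, with 0.0118 to 0.0308, at the 2.25 to 12.7 percentile. Scores in the KO libraries ranged from 0.00562 to 0.0857. That KO scores were below WT scores in all 8 was set by the site calling, which required higher editing than in KO. Neurite scores were above soma scores in 6 of the 7 RNAs with both above 0: 0.427 against 0.243 for Pcdhac2, 0.397 against 0.272 for Pcdh1, 0.323 against 0.278 for Pcdhgc3, 0.142 against 0.120 for Pcdh10, 0.0361 against 0.0258 for Pcdhga1 and 0.0316 against 0.0101 for Pcdh8. Only Pcdha1 had the lower value in neurites, 0.0111 against 0.0124, and Pcdhgc4 was listed at 0 in neurites and at 0.0498 in soma. The median ratio of neurites to soma was 1.40 over these 7 RNAs and 1.33 over the 5423 RNAs with both values above 0, of which 29.3% were lower in neurites.

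**Figure D4:**
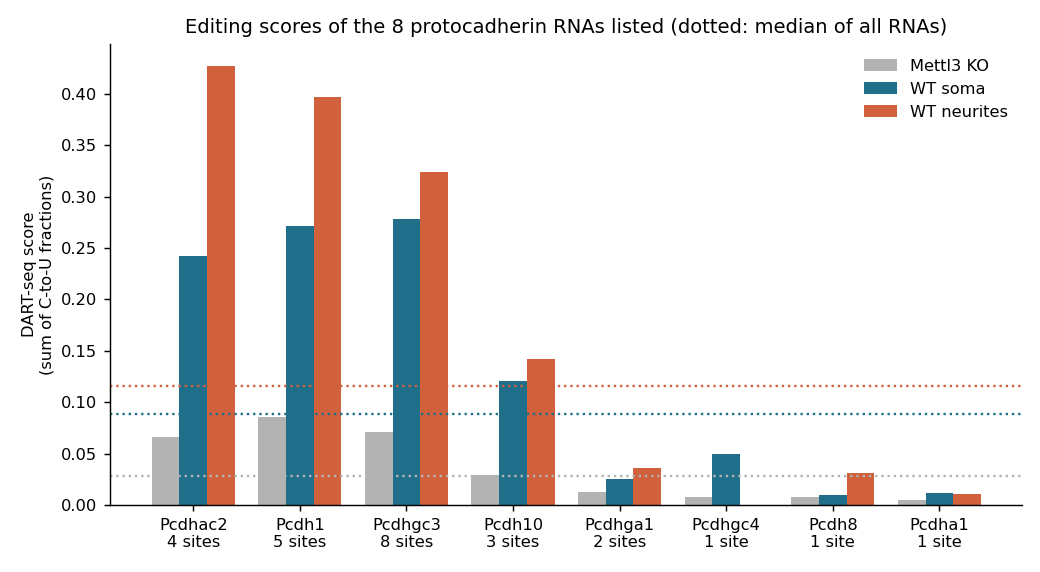
DART-seq score (sum of C-to-U fractions over the called sites, no unit) of the 8 protocadherin RNAs listed, in Mettl3 KO (grey), WT soma (blue) and WT neurites (orange), as the authors' pooled values without error bars. Soma and neurite values pool untreated with KCl-treated samples. Dotted lines are the medians of all 5643 RNAs, 0.0285, 0.0888 and 0.116. Pcdhac2, Pcdh1 and Pcdhgc3 have scores of 0.299 or more in WT overall.

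Regulators of the clusters' promoters and chromatin, and partners of protocadherins, were followed as 2 fixed lists of 13 and 24 genes. In untreated WT neurons Wiz (log2 ratio 1.11, adjusted p = 0.0247), which acts with CTCF at loop anchors, was called higher in neurites, and Setdb1, a histone H3 methyltransferase that acts at the clusters, was called lower (-0.72, adjusted p = 0.00389). Ctnnb1, beta-catenin, was the 1 of 24 partners called there (1.13, adjusted p = 0.000378), where 9.01% of all genes were called higher and 4.54% lower. After KCl, Wiz (1.44), Rad21 (0.70), a cohesin subunit, Ctnnb1 (1.13) and Wasf1 (0.92), a subunit of the WAVE complex that protocadherins bind, were called higher in neurites and Setdb1 (-0.59) lower. That made 2 of 13 regulators and 2 of 24 partners higher and 1 regulator lower, beside 6.87% of all genes higher and 2.73% lower.

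With KCl itself, 0 of 13 regulators and 0 of 24 partners were called in WT soma at 2-fold, beside 3.74% of all genes higher and 2.96% lower. Wasf1 (log2 change -0.87, adjusted p = 0.00859), Cdh11 (-0.53, adjusted p = 0.0137) and Rac1 (-0.51, adjusted p = 0.0220) passed the adjusted p alone, beside 7.07% of all genes lower and 6.13% higher. In WT neurites Dnmt3b, the DNA methyltransferase that marks clustered promoters in development, was called lower (-2.01, SE 0.42, adjusted p = 0.0147), beside 1.7% of all genes lower and 3.33% higher. Cdh11 (-0.63, adjusted p = 0.00877) passed the adjusted p alone there, beside 3.24% of all genes lower and 5.59% higher. At the looser rule the neurite enrichment of Wasf1 (0.99) and Rac1 (0.60) changed upward with KCl and that of Brk1 (0.90) was higher in KO, with adjusted p of 0.999, 0.999 and 0.934. That rule passed 2% of all genes higher and 1.35% lower with KCl, and 2.91% higher and 1.28% lower in KO. No gene of either list was called between genotypes.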

How the data were processed

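Soma and neurite RNA was sequenced after low-input library preparation from 50 ng of RNA. Per the submitters' processing notes, reads were aligned to mm10 with STAR 2.7.7a. The authors deposited raw counts of fragments per gene, made with featureCounts 2.0.1 on Ensembl exons with multi-mapping fragments counted and without strand, and CPM were computed here from them. For DART-seq the authors deposited a score per RNA, the sum of average C-to-U fractions over its sites, and a fraction per site, both averaged over libraries. Columns with the authors' own fold changes and p-values were not used.

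Genes whose count averaged 10 or more in the libraries of a fit, mitochondrial genes left out, were tested with edgeR 4.0.16 (glmQLFit, glmQLFTest, TMM) in R 4.3.3, on the 8 WT libraries for WT comparisons and on all 16 where KO entered. SE is the size of the log2 change divided by the root of F. Calls needed an adjusted p of at most 0.05 and 1.5-fold (2-fold for KCl). Changes of neurite enrichment had 1 term per insert and used an unadjusted p, following the study. KCl against Ctrl in KO neurites was not tested. DESeq2 1.42.0, other scaling and filters, other sets of libraries, a replicate block and each library left out were tried, and the fits were tested on simulated data. Of 200 genes changed 4-fold in simulated counts, the fit for KCl in WT soma called 94% in the right direction. The fit for KO against WT soma called 27%, so the lack of a call between genotypes does not show that a gene is unchanged.

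The methods pair soma and neurites of 1 insert, but deviations of same-numbered soma and neurite libraries correlated at -0.14 (WT Ctrl), 0.02 (WT KCl), 0.07 (KO Ctrl) and 0.90 (KO KCl), so the numbers were not taken to pair libraries and the fits had no block, except that changes of neurite enrichment kept the number as the insert term, following the study. Control and KCl cultures shared litters by the methods, but no source ties the numbers to a litter, and their correlations were 0.07 in WT soma, -0.09 in WT neurites and 0.14 in KO soma. Blocked values stand beside the calls they change. p-values measure the spread between 2 libraries a group. Depth limits precision at the low end, as in Pcdh12 with 4 to 27 reads per library. Genes named were all single genes, C-type isoforms, the 3 most abundant of each cluster, every called member and called genes of the lists. Members and lists were chosen with earlier results of these data known. The result of 1 gene of the lists is not reported here. Coordinates and sequences are from GRCm38, and gene models from GENCODE M21.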

Additional observations from a re-analysis of the deposited data

Results flagged for a closer look

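Pcdh19 was flagged because its neurite enrichment differed between genotypes by a test of that difference, with a log2 change of -0.72 (edgeR, unadjusted p = 0.0400, adjusted p = 0.934).

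Counts outside the comparisons were also flagged. The polymorphic pseudogene Pcdhgb8 had a mean count of 55.1 over the 16 libraries, with 4 to 129 per library, Pcdhga10 had a mean count of 5.31 and Pcdhb1 of 5, all above the 3 counts that a true 0 allows. Groups of 2 libraries are too small for a test of outlying samples.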

How the results depend on the processing

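With 2 libraries a group, few calls of single members withstood the loss of a library. Of 94 alternatives to the main values, nearly all of them counts of called protocadherin genes, 69 left the value about where it was (for a count, within 1.5 times), as did 20 of 44 further ones that leave out 1 replicate. Of 167 alternatives for single genes, 95 kept direction and side of the threshold, and all 167 kept the direction. A lone library left in a group is assumed to vary like the other groups. Shares of all genes called with 1 replicate left out are not given. Counts of members from those fits therefore show only how calls move. The cause of the changes below was not tested.

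An adjusted p with no minimum fold, chosen after seeing the data, gave 2 members instead of 1 for neurites against soma in WT Ctrl, 6 instead of 1 for KCl in WT soma, 4 instead of 1 for KCl in WT neurites and 0 instead of 1 for the KO change in enrichment. For that change an adjusted p with the fold, DESeq2, no filter on low counts and the 8 Ctrl libraries alone also gave 0. Without the filter, 3 members were called for neurites against soma in WT Ctrl, 2 for KCl in WT neurites and 1 for KCl in KO soma. With all 16 libraries the count was 0 for neurites against soma in WT Ctrl and for KCl in WT soma and WT neurites. The 4 libraries alone gave 2 for neurites against soma in WT Ctrl and 0 for KO against WT soma. For KCl in KO soma DESeq2 gave 2 instead of 0, and leaving out both libraries of KO KCl replicate 1 gave 1. Leaving out that pair also raised the count for KO against WT neurites, where calls over all genes rose as well.

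With the replicate block, 0 members were called for neurites against soma in WT Ctrl and for KO against WT in soma and neurites, and without the block that the KO change in enrichment carries, 0 instead of 1. Crossing the numbers of the WT Ctrl neurite libraries, an alternative chosen after seeing the data, gave 1 member for neurites against soma and 0 for the KCl change in enrichment.

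With 1 replicate left out, counts ranged from 0 to 5 for neurites against soma in WT Ctrl, 0 to 3 in WT KCl and 0 to 2 in KO Ctrl. They ranged from 1 to 2 for KCl in WT soma, 1 to 4 in WT neurites and 0 to 2 in KO soma, from 0 to 4 for KO against WT soma and 0 to 0 in neurites, and from 1 to 8 for the KCl change and 0 to 3 for the KO change in enrichment. The median level of clustered genes was 1.81 CPM per kilobase of unshared exon and 1.14 per kilobase of deposited exon length. The median percentile of the DART-seq score was 36.2, and 37.3 for the score per site.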
